A study of Mus musculus with 147 samples.

Results

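The cells described here are prospermatogonia, the arrested germ cells of the mouse testis, on either side of birth: the late embryo at E18.5 (embryonic days) and the day of birth at PND0 (postnatal days). Members were wild-type cells of these time-points with more than 2000 genes and 10000 to 1000000 UMIs (unique molecular identifiers, each counting one captured RNA molecule), with at least 150 CPM (UMIs scaled to a common total per cell or pool) of Ddx4 and under 100 CPM of both Sox9 and Nr2f2. Of 576 wild-type cells at the 2 time-points 565 passed the filter on genes and UMIs and 448 were germ cells, out of 13032 cells in the series. They formed 4 pools of one time-point and replicate each: 72 and 64 cells in E18.5 replicates 1 and 2, and 139 and 173 cells in PND0 replicates 1 and 2. The time-points are given cell by cell in the study's table, and not in the labels of the libraries.

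Both groups came from offspring of C57BL/6 females and males with the BVSC reporters, fluorescent transgenes driven by Prdm1 and Dppa3 (Stella), and no agent was given. At E18.5 the germ cells had been sorted on the Dppa3 reporter from more than 1 embryo or gonad per replicate. PND0 cells came from 1 gonad or animal per replicate and were picked by their form. Birth, the way of collection and the pooling therefore cannot be told apart. Ddx4 chose the cells, so its levels are no finding. Dazl, an RNA-binding protein of germ cells that was not used by the rule, reached 150 CPM in all 448 of them. The nearest cell left out had 126 CPM of Ddx4 and the nearest kept had 153 CPM. All 6 libraries used the same 96 cell barcodes by design.

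Prospermatogonia, also named gonocytes, stop dividing in the fetal testis, where their genome is methylated anew and piRNAs silence transposons. Around birth they begin to prepare for a return to division and for the move to the edge of the tubule, where they found the spermatogonial stem cells. Sertoli cells next to them secrete GDNF, which acts through the receptors GFRA1 and RET and the ETS factors ETV4 and ETV5.

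Depth per germ cell was higher in the E18.5 pools. The pools held 24480553, 24644590, 49636783 and 50777876 germ cell UMIs in the order given above. Median UMIs per germ cell were 346563 and 382608 in the E18.5 pools and 315173 and 276208 in the PND0 pools, which did not overlap (p = 0.333 in a two-sided exact permutation test, and no smaller value is possible for 2 pools against 2). Median genes per cell lay between 11279 and 11908 and overlapped (exact p = 0.667).

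No gene passed the test between PND0 and E18.5. Of 22714 genes tested on the summed counts with edgeR's quasi-likelihood test, 0 passed an adjusted p of 0.05, which is 0.0% of the genes, and 774 had an unadjusted p under 0.05, of which the higher at PND0 were 2.04% and the lower 1.36% of all genes. A threshold of 0.05 lets through more genes than these 774 by chance alone when no gene differs. DESeq2 called 5 genes. Both PND0 pools lay above both E18.5 pools in 15.4% of all genes tested and below them in 15.3%, and the counts of members given further on are to be read against these shares. The count of 0 rested on all 4 pools together. Without E18.5 replicate 1 there were 181 calls, without PND0 replicate 2 there were 78, without E18.5 replicate 2 there were 12 and without PND0 replicate 1 there was 1 call, Hspa1a. Each of these fits has a lone pool at one time-point, which is assumed to vary like the pair at the other.

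The PND0 replicates were unlike each other. Across 6689 genes whose mean log2 CPM was 5 or more, the correlation of log2(CPM + 1) between the PND0 pools was 0.930. PND0 replicate 2 was nearer to E18.5 replicates 1 and 2, at 0.968 and 0.954, than to its own replicate. PND0 replicate 1 correlated at 0.920 and 0.928 with the E18.5 pools and most closely with PND1 replicate 2, at 0.966. Genes are not independent replicates, so these values are a description. The libraries within a replicate were alike, with a correlation of 0.973 between those of PND0 replicate 1 and 0.976 between those of PND0 replicate 2.

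**Figure D1:**
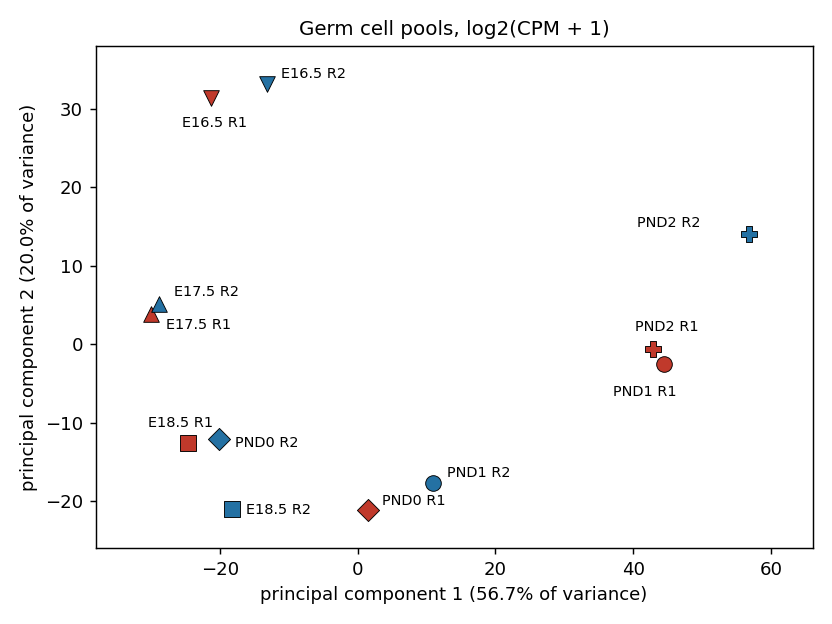
Each point is the summed germ cells of one pool from E16.5 to PND2 on the first 2 principal components of log2(CPM + 1) over 6689 genes (axes in component scores); shapes mark time-points and red and blue mark replicates 1 and 2. PND0 R2 lies beside the E18.5 pools and PND0 R1 beside PND1 R2.

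Genes of the surrounding development gave the same order of the pools. With E16.5 and E17.5 set against PND1 and PND2, and neither E18.5 nor PND0 used, 5722 of 20344 genes passed an adjusted p of 0.05 (28.1%, edgeR). Of those that changed by a factor of 2 or more and had a mean log2 CPM of 5 or more, 1026 were higher later and 386 were higher earlier. The E16.5 and E17.5 germ cells had been sorted on the BVSC reporters, and the PND1 and PND2 cells had not. Age and the way of collection therefore cannot be told apart in these genes either. The library names of the E16.5 and E17.5 pools also share a run of leading digits. From E18.5 to PND2 replicate 2 has this run at each time-point and replicate 1 does not. No source used here says what the names mark, and their part in the unlike replicates was not tested. On the way from the early to the late level of log2(CPM + 1), the median later gene stood at 18.4% in E18.5 replicate 1 and at 31.5% in E18.5 replicate 2. It stood at 65.5% in PND0 replicate 1 and at 22.9% in PND0 replicate 2. PND0 replicate 2 thus lay between the E18.5 pools, and PND0 replicate 1 lay past both.

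The earlier genes, which wane over this time, placed the pools likewise, at 11.7% and 23.8% of the way in the E18.5 pools, 46.3% in PND0 replicate 1 and 18.8% in PND0 replicate 2. In PND0 replicate 1, 876 of the 1026 later genes were above both E18.5 pools, beside 36.7% of all genes tested. In PND0 replicate 2, 273 were above both and 280 were below both, beside 28.3% and 31.4% of all genes. Both PND0 pools were above both E18.5 pools for 249 later genes and below them for 15. As one value per pool, the log2 ratio of later to earlier summed CPM was 0.60 ± 0.28 at E18.5 and 1.08 ± 0.69 at PND0 (mean ± SD, n = 2), which overlapped (exact permutation test, p = 0.667). The 2 libraries of PND0 replicate 1 stood at 62.0% and 69.3% for the later genes, and both libraries of PND0 replicate 2 stood at 22.9%.

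Single cells showed how each pool was made up. The same ratio was taken in every germ cell with at least 50000 UMIs as log2 of later over earlier UMIs, each plus 1, and rested on a median of 29765 to 41473 UMIs per cell in these pools. Its median was 0.39 in E18.5 replicate 1 and 0.73 in E18.5 replicate 2. In PND0 replicate 1 the median was 1.46, and the cells ran from 0.11 to 3.19. In PND0 replicate 2 the median was 0.52. The SD among cells was 0.31 and 0.41 in the E18.5 pools, 0.75 in PND0 replicate 1 and 0.44 in PND0 replicate 2.

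The cells of PND0 replicate 1, all from one animal, therefore spread more widely than those of the other 3 pools. Above the highest E18.5 cell, at 1.85, lay 42 of its 137 cells (30.7%, 95% exact binomial interval 23.1 to 39.1), and 24 cells were above the 5th percentile of PND2 cells, at 2.24. In PND0 replicate 2, 2 of 167 cells (1.20%, 0.145 to 4.26) lay above the highest E18.5 cell. These intervals cover counting error only, and cells of one animal are not independent replicates. The share was 26.8% and 36.4% in the 2 libraries of PND0 replicate 1. At PND1 the medians were 3.23 and 2.02 in replicates 1 and 2, so that unequal replicates were also seen a day later.

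**Figure D2:**
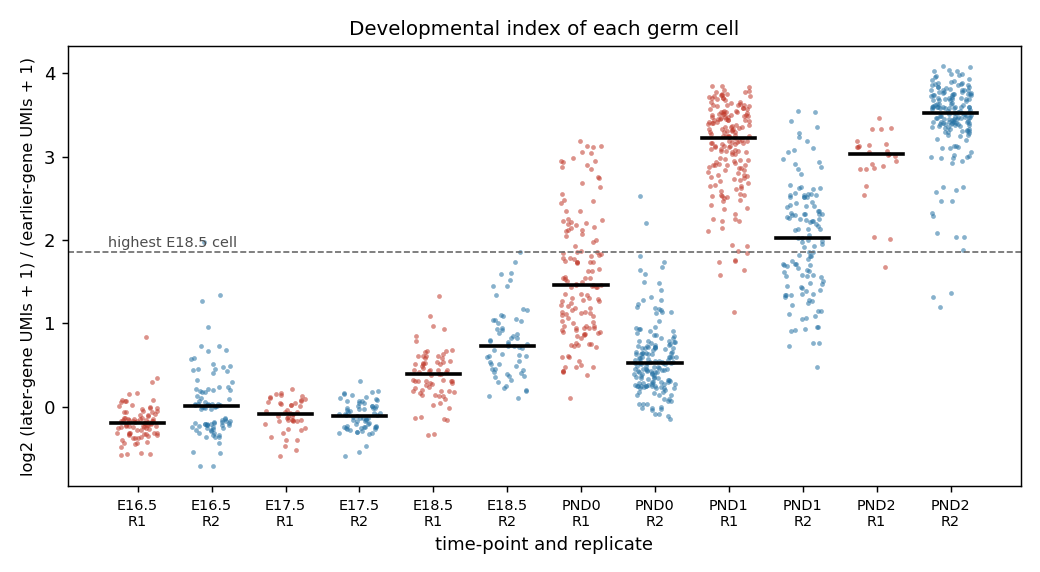
Each point is one germ cell of at least 50000 UMIs, by pool from E16.5 to PND2, against the log2 ratio of later-gene to earlier-gene UMIs (each plus 1); black bars are medians and the dashed line is the highest E18.5 cell at 1.85. PND0 R1 reaches from the E18.5 range to the PND2 range, and PND0 R2 stays in the E18.5 range but for 2 cells.

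The GDNF and FGF pathway was tested as a list of 20 genes, of which 0 passed the test, 6 were higher in both PND0 pools than in both E18.5 pools and 0 were lower, and 7 had an unadjusted p under 0.05, all in the direction of PND0. The median log2 fold change of the list was 0.34, beside 0.01 over all genes tested. Taken pool by pool, the median difference from E18.5 was 0.68 in PND0 replicate 1 and -0.01 in PND0 replicate 2 on the log2(CPM + 1) scale, so the difference lay in one of the 2 PND0 replicates. Genes that are not in the naming rule, such as Dusp6, Bcl6b and Etv4 here and Rbm3, Prdm1 and the Leydig cell genes further on, were chosen after their values were seen.

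Dusp6 (chr10:99263231-99267489, mm10, plus strand), a phosphatase that ERK signalling induces and that switches ERK off, was at 3.72 and 5.88 CPM in the E18.5 pools. It was at 54.5 CPM in PND0 replicate 1 and at 11.1 CPM in PND0 replicate 2. Both PND0 values were above both E18.5 values, with a log2 fold change of 2.75 ± 0.61 (SE, n = 2 pools per time-point), and Dusp6 was among the 5 genes that DESeq2 called. With each cell thinned to 50000 UMIs, Dusp6 had a UMI in 17.1% (95% exact binomial interval 9.18 to 28.03) and 9.68% (3.63 to 19.9) of germ cells in the E18.5 pools. The share was 56.2% (47.5 to 64.7) in PND0 replicate 1, 25.7% (19.3 to 33.1) in PND0 replicate 2 and 35.1% (22.9 to 48.9) in 57 somatic cells. Without thinning the shares in germ cells were 33.3%, 29.7%, 90.6% and 46.2%. The somatic cells express Dusp6 themselves and so give no floor for free RNA. These intervals cover counting error only.

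Gfra1, the GDNF-binding receptor, was at 0.53 and 1.70 CPM at E18.5, at 16.8 CPM in PND0 replicate 1 and at 3.66 CPM in PND0 replicate 2. Its log2 fold change was 3.18 ± 0.82. At 50000 UMIs per cell a Gfra1 UMI was found in 1.43% (0.036 to 7.70) and 6.45% (1.79 to 15.7) of germ cells at E18.5, in 20.4% (14.0 to 28.2) in PND0 replicate 1 and in 9.58% (5.58 to 15.1) in PND0 replicate 2. It was found in 0 of 57 somatic cells, which allows a share of up to 5.26% by a limit of 3 counts, and the exact interval reaches 6.27%. Unthinned shares in germ cells were 12.5%, 9.38%, 46.8% and 20.8%. The germ cell levels went on to 88.6 and 24.5 CPM at PND1 and to 88.4 and 82.0 CPM at PND2. Ret, the signalling partner of GFRA1, was at 11.2 and 13.1 CPM at E18.5, 46.8 CPM in PND0 replicate 1 and 12.3 CPM in PND0 replicate 2, so that its groups overlapped.

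Etv5 and Etv4, the ETS factors downstream of GDNF, differed mainly in PND0 replicate 1. Etv5 was at 8.01 and 6.98 CPM at E18.5 and at 47.4 and 9.35 CPM at PND0. For Etv4 the values were 9.89 and 15.8 CPM at E18.5 and 48.8 and 10.4 CPM at PND0, which overlapped. By PND2 Etv5 stood at 146 and 181 CPM. Bcl6b, a repressor that GDNF induces in stem cells, was more alike between the PND0 pools, at 22.6 and 15.3 CPM against 7.92 and 4.42 CPM at E18.5 (log2 fold change 1.62 ± 0.45). Earlier it was at 19.7 and 18.8 CPM at E16.5 and at 25.6 and 10.5 CPM at E17.5. Both E18.5 pools thus lay below the earlier pools as well.

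Markers of prospermatogonia and of the coming stem cells were tested as a list of 18 genes, of which 0 passed, 5 were higher in both PND0 pools and 0 were lower. The list shares Gfra1, Ret, Etv5, Bcl6b and Id4 with the pathway above. Its median log2 fold change was 0.49, and pool by pool it was 0.80 in PND0 replicate 1 and 0.08 in PND0 replicate 2. Id4, an inhibitor of DNA binding that marks stem spermatogonia, was at 25.1 and 22.5 CPM at E18.5 and at 73.2 and 29.9 CPM at PND0. Nanos2, an RNA-binding protein of arrested germ cells and stem cells, was near the limit of detection, at 0.16 and 0 CPM at E18.5 and 3.20 and 1.32 CPM at PND0. In PND0 replicate 1 Nanos2 was at 0.036 CPM in library 1 and at 7.11 CPM in library 2. Its relative Nanos3 overlapped, at 4.94 and 11.9 CPM and at 15.5 and 11.3 CPM.

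Dnmt3l and Piwil4 overlapped between the time-points. Dnmt3l, the cofactor of de novo DNA methylation, was at 282 and 260 CPM at E18.5, at 210 CPM in PND0 replicate 1 and at 315 CPM in PND0 replicate 2. Piwil4, the nuclear piRNA-binding protein, was at 204 and 153 CPM at E18.5 and at 93.2 and 211 CPM at PND0. Both genes were thus lowest in PND0 replicate 1 and highest in PND0 replicate 2, and both were lower again at PND2, Dnmt3l at 57.0 and 27.1 CPM and Piwil4 at 47.9 and 47.1 CPM.

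Among 16 genes of DNA methylation 1 was higher and 2 were lower in both PND0 pools, and among 20 of the piRNA pathway 2 were higher and 2 were lower, with median log2 fold changes of -0.01 and 0.01. Surface and cytoskeletal genes of these cells overlapped. Krt18 (a keratin) was at 213, 239, 218 and 233 CPM in E18.5 replicates 1 and 2 and PND0 replicates 1 and 2. Tspan8 (a tetraspanin) was at 145, 169, 164 and 168 CPM in that order. Tie1 (a receptor tyrosine kinase best known in vessels) was at 158, 167, 111 and 169 CPM. Dazl stood at 626 and 634 CPM at E18.5 and at 666 and 665 CPM at PND0, so both PND0 pools were above both E18.5 pools, but the log2 fold change of 0.09 ± 0.16 was smaller than its error.

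**Figure D3:**
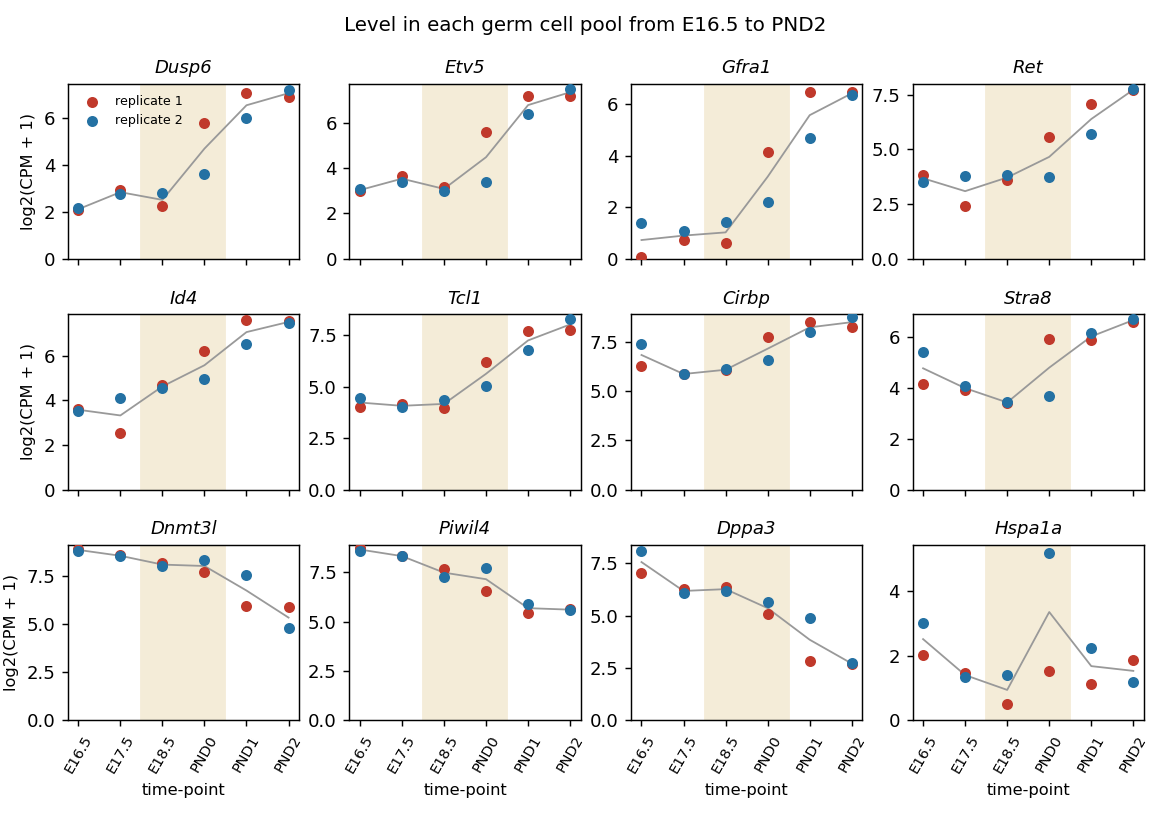
Level of 12 genes in each germ cell pool from E16.5 to PND2, as log2(CPM + 1), with red and blue points for replicates 1 and 2, grey lines through their means and the E18.5 and PND0 columns shaded. In the top 8 panels PND0 replicate 1 lies above both E18.5 points, with PND0 replicate 2 nearer to them, and Hspa1a is high only in PND0 replicate 2.

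Of 19 factors of germ cell identity and pluripotency, 6 were higher and 3 lower in both PND0 pools. Dppa3, which protects imprints from demethylation, was lower, at 32.3 and 49.5 CPM against 80.5 and 71.6 CPM at E18.5 (log2 fold change -0.88 ± 0.30). At PND2 its levels were 5.52 and 5.58 CPM. Since E18.5 cells had been sorted on a Dppa3 reporter and PND0 cells had not, time-point and gate cannot be told apart for this gene. Prdm1, a repressor needed for the germ line, drives the other reporter, and was at 55.1 and 61.2 CPM at E18.5 and at 39.8 and 21.01 CPM at PND0. In the E16.5 and E17.5 pools, also sorted on the reporters, it was at 29.6, 14.0, 29.7 and 34.6 CPM. Pou5f1 (OCT4) overlapped, at 51.2 and 37.8 CPM at E18.5 and at 45.8 and 71.7 CPM at PND0. So did the receptor Kit, at 32.8 and 24.5 CPM and at 26.1 and 24.0 CPM.

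Of the retinoic acid pathway 20 genes were tested, with 4 higher and 3 lower in both PND0 pools. Stra8, a retinoic acid target that is required for meiosis, was at 9.48 and 9.90 CPM at E18.5, at 58.4 CPM in PND0 replicate 1 and at 11.8 CPM in PND0 replicate 2 (log2 fold change 1.84 ± 0.57). Aldh1a2, which makes retinoic acid, went the other way, at 169 and 176 CPM at E18.5 and at 130 and 164 CPM at PND0. Of 16 meiotic genes 4 were higher, Stra8 among them, and 2 were lower, with a median log2 fold change of 0.01.

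Immediate early genes, which cells switch on within minutes of a stimulus and also during dissociation, numbered 26. In both PND0 pools 9 were higher and 2 were lower than at E18.5, and the median log2 fold change was 0.53. Pool by pool the median was 0.79 in PND0 replicate 1, with 19 genes above both E18.5 pools, and 0.05 in PND0 replicate 2, with 9. The shares of all genes tested above both E18.5 pools were 36.7% in PND0 replicate 1 and 28.3% in PND0 replicate 2. The 9 of 26 in PND0 replicate 2 alone was thus near its background. Fos, a subunit of AP-1, was at 10.4 and 34.4 CPM at E18.5 and at 64.6 and 37.1 CPM at PND0, and Egr1, a zinc finger factor, was at 19.8 and 13.7 CPM and at 53.4 and 23.7 CPM. Jun, the partner of FOS, overlapped, at 9.27 and 25.7 CPM and at 26.1 and 19.8 CPM. Somatic cells held Fos at 689, 1133 and 894 CPM in E18.5 replicates 1 and 2 and PND0 replicate 1, many times the germ cell level. The part of dissociation in these levels was not tested.

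A pair of temperature-regulated genes showed how differently the PND0 pools could move, and their promoters are printed since each holds an element named for its regulation. Cirbp (chr10:80165985-80172786), an RNA-binding protein induced by mild cold, was at 65.8 and 67.3 CPM at E18.5, at 209 CPM in PND0 replicate 1 and at 94.5 CPM in PND0 replicate 2. Both PND0 pools were above both E18.5 pools, with a log2 fold change of 1.18 ± 0.31. Rbm3, another cold-induced RNA-binding protein, was at 156 and 152 CPM at E18.5 and at 283 and 217 CPM at PND0. Somatic cells held Cirbp at 163 and 215 CPM at E18.5 and at 480 CPM in PND0 replicate 1, and the log2 changes in somatic and germ cells differed by 0.24 ± 0.57 (edgeR's interaction term, adjusted p = 1.00). At PND2 the germ cells held 302 and 427 CPM of Cirbp and 345 and 452 CPM of Rbm3. Before E18.5 the course was not a steady one. Rbm3 was at 157 and 193 CPM at E16.5 and at 221 and 217 CPM at E17.5, so PND0 replicate 2 was not above E17.5. Cirbp was at 77.4 and 164 CPM at E16.5 and at 57.2 CPM in both pools of E17.5.

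Hspa1a (chr17:34969190-34972156), the inducible HSP70 chaperone, had the opposite order of the PND0 pools. It was at 0.41 and 1.62 CPM at E18.5, at 1.87 CPM in PND0 replicate 1 and at 35.5 CPM in PND0 replicate 2. In PND0 replicate 2 a Hspa1a UMI was found in 135 of 173 cells, the highest cell held 8.71% of the 1803 UMIs, and in PND0 replicate 1 there was one in 13 of 139 cells. Thinned to 50000 UMIs, cells with a UMI made up 46.7% (38.96 to 54.6) of PND0 replicate 2 and 6.57% (3.05 to 12.1) of PND0 replicate 1. They made up 4.29% (0.893 to 12.02) and 4.84% (1.01 to 13.5) of the E18.5 pools and 8.77% (2.91 to 19.3) of somatic cells. No somatic cell came from PND0 replicate 2, so this share gives no floor for that pool. Summed somatic cells held Hspa1a at 0, 29.4 and 4.70 CPM in E18.5 replicates 1 and 2 and PND0 replicate 1. Hspa1b, the neighbour of Hspa1a, was at 0.20, 0.69, 2.66 and 4.59 CPM in the germ cell pools. Reads of this pair of near-identical genes may be split between them. Of 18 heat shock chaperones 4 were higher and 3 were lower in both PND0 pools, with a median log2 fold change of 0.05. Dnajb1, which is also induced by heat, was at 160, 155, 147 and 153 CPM.

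The sequences are the 250 bases before the first RefSeq start of each gene (GRCm38.p6), 5′ to 3′ on the strand of the gene. Capitals mark TCCCCGCC, the core of the mild-cold response element, in Cirbp (chr10:80167589-80167838, plus strand), and GAANNTTC, a pair of inverted heat shock element units, in Hspa1a (chr17:34972157-34972406, minus strand).
Cirbp: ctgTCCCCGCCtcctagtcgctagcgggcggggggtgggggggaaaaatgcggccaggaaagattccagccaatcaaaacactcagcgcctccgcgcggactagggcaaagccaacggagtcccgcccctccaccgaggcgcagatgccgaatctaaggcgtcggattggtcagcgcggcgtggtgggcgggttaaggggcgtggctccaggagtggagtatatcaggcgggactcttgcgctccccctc
Hspa1a: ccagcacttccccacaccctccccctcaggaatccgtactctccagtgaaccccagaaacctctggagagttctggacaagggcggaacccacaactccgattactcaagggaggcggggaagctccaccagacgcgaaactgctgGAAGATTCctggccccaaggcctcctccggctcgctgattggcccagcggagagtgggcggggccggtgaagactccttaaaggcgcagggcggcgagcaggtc

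Both strands were searched. TCCCCGCC was found 247 bases before the first of 2 starts of Cirbp and not in the window of the other start, and also in the promoters of Hspa1a, Hspa1b and Id4, and 4.64% of 32851 promoters held it in the same window. GAANNTTC began 104 bases before the start of Hspa1a and was found in 6.69% of promoters. A match is a description of the letters and shows no binding.

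By size, the 10 genes with the largest positive log2 fold changes among those of an unadjusted p under 0.05, whose pools did not overlap and whose mean log2 CPM was 5 or more, were Tcl1, Usf1, Fos, Cirbp, Lasp1, Asb9, Ncstn, Fibp, Id4 and Bora. None passed the adjusted test (lowest adjusted p among them 0.9996, edgeR), and 9 of them are among the 1026 later genes. For scale, 6689 of the genes tested here had a mean log2 CPM of 5 or more. Their log2 fold changes ran from 1.01 to 1.61. PND0 replicate 1 held 2.20 to 4.25 times the E18.5 mean of these genes and PND0 replicate 2 held 1.18 to 1.88 times.

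Tcl1, a coactivator of the kinase AKT, led with 14.6 and 19.4 CPM at E18.5 and 72.3 and 31.9 CPM at PND0, a log2 fold change of 1.61 ± 0.39. It reached 213 and 310 CPM at PND2. Usf1, an E-box-binding factor, was at 34.1 and 27.0 CPM at E18.5 and at 114 and 43.7 CPM at PND0. Bora, which activates Aurora A at the entry into mitosis, was the most alike between the PND0 pools, at 75.2 and 61.8 CPM against 42.5 and 25.8 CPM. Earlier it was at 47.6 and 48.4 CPM at E16.5 and at 63.55 and 41.2 CPM at E17.5, so E17.5 replicate 1 was above PND0 replicate 2.

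**Figure D4:**
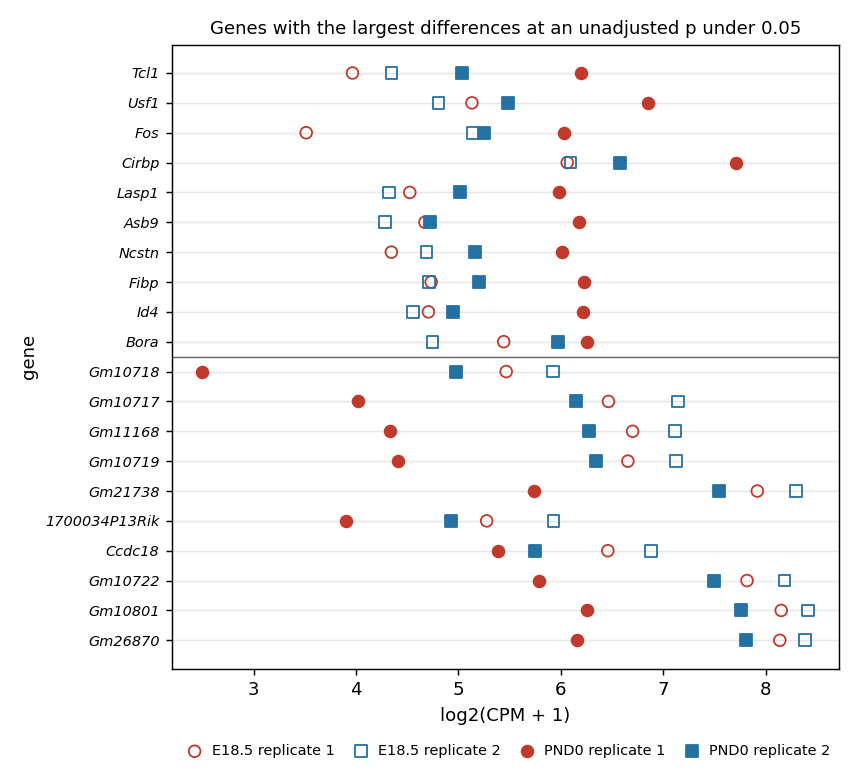
Level in the 4 pools of the 10 genes with the largest positive (above the line) and the 10 with the largest negative log2 fold changes at an unadjusted p under 0.05, as log2(CPM + 1); open symbols are E18.5, filled symbols PND0, circles replicate 1 and squares replicate 2. In all 20 genes PND0 replicate 1 lies further from E18.5 than PND0 replicate 2.

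The 10 genes with the largest negative log2 fold changes were mostly predicted gene models: Gm10718, Gm10717, Gm11168, Gm10719, Gm21738, 1700034P13Rik, Ccdc18, Gm10722, Gm10801 and Gm26870. Of these, 6 lie together within chr9:3000282-3038313, near the centromeric end, among near-identical copies, so how reads were shared out among them is uncertain. Only 4 of the 10 are among the earlier or later genes. Gm10801 was at 284 and 341 CPM at E18.5, at 75.6 CPM in PND0 replicate 1 and at 216 CPM in PND0 replicate 2, and at 31.3 and 21.5 CPM at PND2. Ccdc18, which codes for a coiled-coil protein, was lower in both PND0 pools by a like amount, at 40.9 and 52.6 CPM against 87.0 and 117 CPM (log2 fold change -1.11 ± 0.28). Its levels were 48.7 and 117 CPM at E16.5 and 41.5 and 57.0 CPM at E17.5. The PND0 levels were thus near those of E17.5. 1700034P13Rik is annotated as an antisense RNA, and its reads may come from the gene it overlaps.

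Genes of the cell cycle gave a mixed picture. Of 20 S phase genes 7 were higher and 1 was lower in both PND0 pools, with a median log2 fold change of 0.25. Cdk2, the kinase of the entry into S phase, was at 57.1 and 66.5 CPM at E18.5 and at 137 and 86.9 CPM at PND0. Of 20 genes of the G2 and M phases 0 were higher and 7 were lower, with a median of -0.12. Cenpf, a centromere protein, was among them, at 387 and 331 CPM at E18.5 and at 214 and 313 CPM at PND0. Mki67, the proliferation marker, overlapped, at 31.1 and 11.2 CPM and at 18.3 and 14.5 CPM. It reached 63.5 and 146 CPM at PND2.

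The CDK inhibitors overlapped. Cdkn1a (p21) was at 7.35 and 24.1 CPM at E18.5 and at 37.9 and 15.1 CPM at PND0, and Cdkn1b (p27) was at 41.8 and 35.7 CPM and at 40.9 and 25.6 CPM. Of the 18 genes of G1 control 3 were higher and 1 was lower in both PND0 pools.

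Metabolic and stress genes lay nearer to the background share of 15.4% for genes higher in both PND0 pools. The share lower in both was under the background of 15.3% in each list of this paragraph. Cholesterol and fatty acid synthesis stood out most, with 8 of 29 genes higher and 1 lower in both PND0 pools and medians of 0.33 in PND0 replicate 1 and -0.07 in PND0 replicate 2. Srebf2, the master factor of cholesterol synthesis, was at 68.3 and 56.6 CPM at E18.5 and at 101 and 79.8 CPM at PND0. The counts higher and lower were 4 and 3 of 22 for the hypoxia response, 4 and 1 of 20 for glycolysis, 2 and 0 of 16 for the glucocorticoid response, 5 and 1 of 22 for antioxidant defence and 4 and 0 of 18 for the amino acid and integrated stress response. Cytosolic ribosomal proteins (8 and 3 of 83), nuclear subunits of oxidative phosphorylation (10 and 2 of 77) and mitochondrially encoded genes (1 and 1 of 13) had medians within 0.05 of 0, and the medians of the PND0 pools lay on opposite sides of E18.5. Of the ribosomal protein genes 45 were below both E18.5 pools in PND0 replicate 1 and 61 were above both in PND0 replicate 2. Of the oxidative phosphorylation genes 42 were below in PND0 replicate 1 and 52 were above in PND0 replicate 2. Of all 22714 genes tested, 7025 were below both E18.5 pools in PND0 replicate 1 and 6423 (28.3%) were above both in PND0 replicate 2.

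Signalling at the cell surface was likewise mixed. Targets of BMP, activin and Nodal had 3 of 20 genes higher and 1 lower, Notch pathway genes 2 and 3 of 16, receptors of growth factors and hormones 1 and 5 of 29, and genes of adhesion and migration 5 and 2 of 26. Mmp9, a matrix protease, was the clearest of the last list, at 36.5 and 16.6 CPM at PND0 against 10.7 and 15.1 CPM at E18.5. Imprinted genes had 4 of 26 higher and 5 lower.

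**Figure D5:**
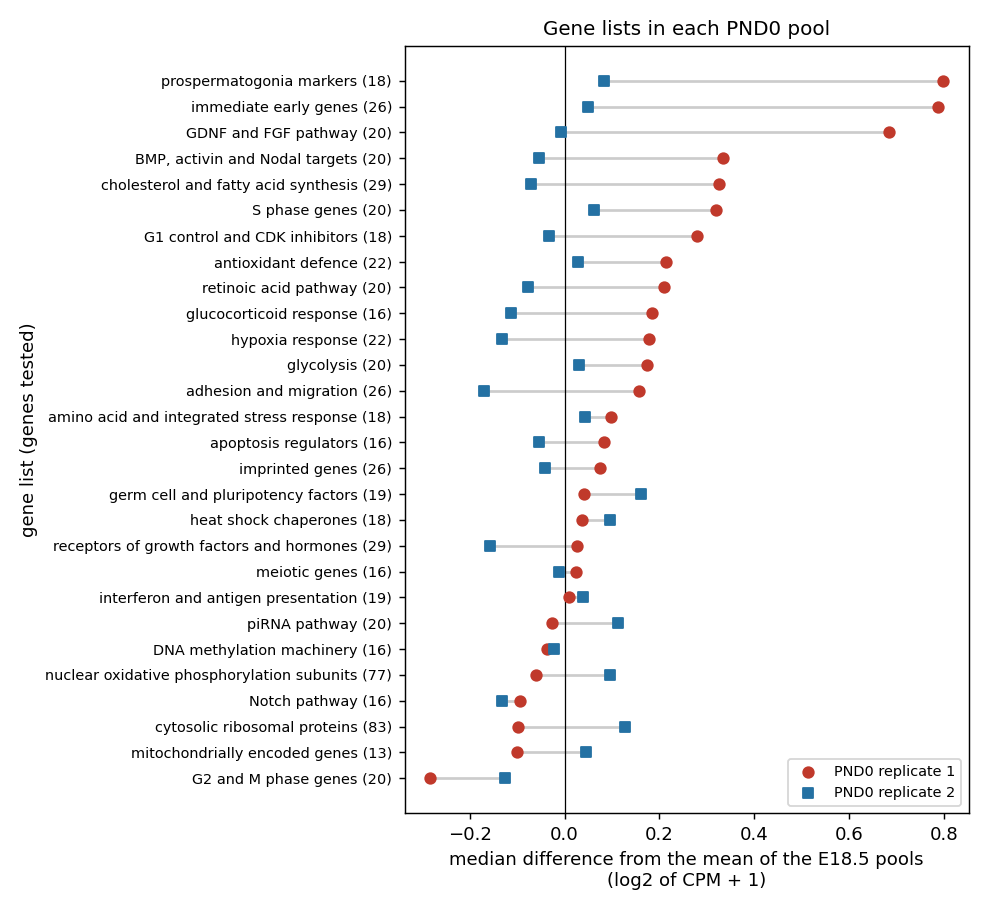
For each gene list, with the number of genes tested in brackets and the marker lists of other cell types left out, the median difference in log2(CPM + 1) from the mean of the E18.5 pools is shown for PND0 replicate 1 (red circles) and PND0 replicate 2 (blue squares). Replicate 1 reaches 0.80, 0.79 and 0.68 for the prospermatogonia, immediate early and GDNF and FGF lists, and replicate 2 stays between -0.17 and 0.16 for every list drawn.

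Markers of other testis cells were found in the germ cells and were not the same in all pools. Leydig cell markers summed to 19.4 CPM in E18.5 replicate 1 and to 615 CPM in E18.5 replicate 2, and to 80.4 and 99.7 CPM at PND0. Cyp17a1, an enzyme of androgen synthesis, had UMIs in all 64 germ cells of E18.5 replicate 2 and in 4 of 72 of E18.5 replicate 1, and somatic cells of E18.5 replicate 2 held 1294 CPM of the list against 9.03 CPM in E18.5 replicate 1. Sertoli cell markers summed to 201 and 280 CPM at E18.5 and 268 and 226 CPM at PND0, interstitial markers to 213, 197, 172 and 210 CPM, peritubular myoid markers to 269, 230, 233 and 263 CPM, and endothelial markers to 68.9, 62.7, 78.0 and 79.2 CPM. Erythroid markers summed to 398, 332, 232 and 507 CPM, above the 44.8, 103 and 26.3 CPM in somatic cells of the first 3 pools, and macrophage markers to 15.03, 7.10, 14.4 and 30.5 CPM. Of these markers 2, 1, 3 and 0 macrophage genes were at 0, and their part in the results was not tested.

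Somatic cells of the same pools were too few for a firm comparison: 23 and 20 at E18.5, 29 in PND0 replicate 1 and 0 in PND0 replicate 2. The interaction of cell class and time-point was called for 0 of 24173 genes (0.0%, edgeR), with 1503 at an unadjusted p under 0.05. Without E18.5 replicate 1 it was called for 1900 genes and without E18.5 replicate 2 for 1512. Somatic cells at PND0 came from one animal, and 12 of the 29 had at least 100 CPM of Sox9, a Sertoli cell factor, against 1 and 4 in the E18.5 pools.

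The neighbouring steps were counted in the same way. In one fit over the 12 pools from E16.5 to PND2 (24008 genes, edgeR), 0 genes were called from E17.5 to E18.5, from E18.5 to PND0 and from PND0 to PND1. Their counts at an unadjusted p under 0.05 were 1976, 602 and 2780, so the step over birth had the fewest, and DESeq2 was not run on these steps. From E16.5 to E17.5 18 genes (0.075%) were called and from PND1 to PND2 88 (0.367%). Over E18.5 to PND1 1230 genes were called (5.12%), 921 of them higher at PND1. Steps that share a pool are not independent of each other.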

How the data were processed

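The authors made single-cell libraries by a modified form of STRT-seq. Per their methods, barcodes and UMIs were extracted with UMI-tools, reads were trimmed with seqtk and mapped to mm10 with STAR, featureCounts assigned them to genes, and UMI-tools removed PCR duplicates and counted UMIs per gene. The deposited counts were not normalized. Counts of 31053 genes in 1664 cells of E16.5 to PND2 were read, and a table of cells by the authors gave time-point, replicate and gate. No doublet caller was run, since cells were picked or sorted singly.

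Counts were summed over the germ cells of each pool and tested with edgeR 4.0.16 (TMM, filterByExpr, quasi-likelihood test, Benjamini-Hochberg, threshold 0.05) with 2 pools per time-point. Where fold changes are given with ±, the error is the SE from this fit. The p-values measure only the spread between these pools. DESeq2 1.42.0, other scalings, other cell cuts and leaving out each pool were alternatives. The study tested cells as replicates. Cells were thinned to 50000 UMIs at random for shares. Coordinates are from GENCODE M21 on mm10, another release than that used for counting.

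The cells and the 35 gene lists were chosen with earlier results of these data known. Genes named were the 10 largest changes in each direction at an adjusted p under 0.05, with those of an unadjusted p under 0.05 where fewer passed, up to 4 members called per list, and 23 genes named whatever their p.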

Additional observations from a re-analysis of the deposited data

How the results depend on the processing

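The count of 0 genes between E18.5 and PND0 was also 0 with RLE scaling, Ddx4 cuts of 300 and 75 CPM, a Sox9 and Nr2f2 cut of 50 CPM, the BVSC gate alone, thinning, the fit over E16.5 to PND2 and a mean log2 CPM of at least 5. It was 4 with no filter on low counts (Dusp6, 9230117E06Rik, Hspa1a and Cyp17a1), 5 with DESeq2 (Dusp6, Gm44761, Gm35392, Mchr1 and 9230117E06Rik), and 1 to 181 when one pool was left out. Of members of the lists DESeq2 called 1. The germ to somatic interaction was 0 with RLE scaling and with interstitial cells only, 15 with the pool as a replicate block and 0 to 1900 when a pool was left out, and could not be fitted without PND0 replicate 1. With the replicate number as a block 14 genes were called between the time-points. Same-numbered pools did not deviate together (correlation -0.22 over 6728 genes), so the numbers were not taken as pairs, although libraries of one number also have neighbouring library names at both time-points and no source used here says what those names mark, and the crossed pairing called 21. The crossed pairing, the interstitial cells and the mean log2 CPM cut were chosen after seeing the data. The causes of these differences were not tested, except that fewer pools were fitted where one was left out.

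Among the named genes 16 fold changes of 573 changed sign. Krt18 was at -0.0072 with RLE scaling and -0.0063 with DESeq2, and at Ddx4 of at least 300 CPM Dnmt3l was at 0.015 and Cdkn1b at 0.014. Leaving out one pool gave log2 fold changes of -0.40 to 0.28 for Dnmt3l, -0.97 to 0.29 for Piwil4, -0.39 to 0.051 for Kit, -0.00034 to 0.20 for Tspan8, -0.089 to 0.098 for Krt18, -0.58 to 0.11 for Tie1, -0.92 to 0.56 for Mki67, -0.54 to 0.042 for Cdkn1b and -0.15 to 1.303 for Jun. Without PND0 replicate 2, 20 named genes passed the test, Etv5, Gfra1, Ret, Id4, Cirbp, Stra8 and Tcl1 among them, with the spread taken from the E18.5 pools alone. Each pool held at least 24480553 germ cell UMIs, and the fit had 2 residual degrees of freedom.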

Other observations

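Genes of the interferon response and antigen presentation, and of apoptosis, were tested as lists of 19 and 16, of which 0 passed. In the former 4 genes were higher and 3 lower in both PND0 pools than in both E18.5 pools, and in the latter 3 were higher and 2 lower. Ifit1, which is induced by interferon, was listed at 0 in both E18.5 pools and at 0.97 and 2.80 CPM at PND0, and Irf7, the factor that amplifies the response, was at 0.61 and 1.34 CPM and at 2.74 and 6.22 CPM. B2m, the light chain of MHC class I, was at 151 and 156 CPM at E18.5 and lower, at 108 and 132 CPM, at PND0. Bax, which opens the mitochondrial membrane in apoptosis, was at 111 and 124 CPM at E18.5 and at 198 and 149 CPM at PND0. Earlier it was at 183 and 189 CPM at E16.5 and at 165 and 155 CPM at E17.5, above PND0 replicate 2. These genes were chosen after their values were seen.

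Several other regulators that are high at PND2 differed mainly in PND0 replicate 1. Mycn, a growth-promoting transcription factor, was at 8.58 and 6.05 CPM at E18.5, 43.1 and 10.4 CPM at PND0 and 62.3 and 61.1 CPM at PND2. Dmrt1, a regulator of the male germ line, was at 66.4 and 93.6 CPM, 232 and 70.8 CPM and 191 and 204 CPM in the same order. They too were chosen after their values were seen.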
